A study of Mus musculus with 12 samples.

Results

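The lipid-associated macrophage signature described here consists of 8 genes known to mark lipid-laden macrophages: Gpnmb, Trem2, Spp1, Cd9, Lgals3, Fabp4, Fabp5 and Lpl. They were taken by name, not by a threshold on their values, but with earlier results of these data known. All 8 were among the 24499 gene symbols in the counts table. RNA came from tumour-draining lymph nodes of APOE-KO mice (6 libraries) and of wildtype C57BL6 mice (6 libraries). Mice of both genotypes had been injected with E0771-cOC tumours (E0771 is a mammary cancer line of the mouse), and nodes were taken on day 9. The nodes were digested and enriched for CD11c+ cells with magnetic beads, so the libraries are mixtures, enriched for dendritic cells and macrophages that carry CD11c. The labels used here do not state the knockout allele, the age of the mice or whether each library is a separate mouse. The p-values therefore reflect only how much these libraries vary, which may be technical.

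Macrophages that take up more lipid than they can export switch on a characteristic set of genes, described in atherosclerotic plaques, obese adipose tissue, injured liver and the ageing or diseased brain. TREM2 is a surface receptor that binds lipids and lipoproteins, apolipoprotein E among them, and signals through the adaptor TYROBP. The other genes of the set encode proteins that release fatty acids from lipoproteins (Lpl), carry them inside the cell (Fabp4 and Fabp5), sit in lysosomal or surface membranes (Gpnmb and Cd9), or are secreted as glycan-binding and matrix proteins (Lgals3 and Spp1).

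Libraries held between 2381477 and 4898360 counts. Apoe, the gene targeted in the knockout, stood at 2.75 to 10.7 CPM (read counts scaled to a common library size) in APOE-KO libraries and at 409 to 531 CPM in wildtype libraries, so every library fits its genotype label. Itgax, which encodes CD11c, had 298 ± 36.9 CPM in APOE-KO and 278 ± 54.0 CPM in wildtype libraries (SD, n = 6 each; log2 fold change 0.10, adjusted p = 0.841). The macrophage genes Cd68, Csf1r and Adgre1, picked from 17 markers after their values were seen, were present in both genotypes. They had 89.1, 153 and 27.8 CPM in APOE-KO and 74.0, 144 and 32.4 CPM in wildtype libraries. Levels in that list differed widely. C1qa had 335 and 288 CPM in APOE-KO and wildtype, but Mertk had 1.42 and 1.70, Fcgr1 5.48 and 3.17, Siglec1 3.20 and 5.71 CPM, and Vsig4 no read. Several libraries stood apart. APOE-KO library 5 had the fewest genes detected, and the ribosomal Rn45s took 32.2% of counts in wildtype library 1 and 2.71% in wildtype library 3, the highest and lowest shares of the 12. Without these 3 libraries the log2 fold changes of the genes called below were 3.48 for Gpnmb, 1.57 for Lpl, 1.05 for Fabp5 and 0.84 for Lgals3, all past the threshold.

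Of the 8 genes, 7 had enough reads to be tested across all genes and 4 of them were higher in APOE-KO: Gpnmb, Lpl, Fabp5 and Lgals3. In these 4, and in Trem2, every APOE-KO library lay above every wildtype library. Cd9, Fabp4 and Spp1 did not pass the threshold, and their groups overlapped. A gene passed when its adjusted p in edgeR's quasi-likelihood test, adjusted over all 10714 tested genes, was under 0.05; 1.49% of tested genes passed in either direction, 1.08% passed as higher and 0.411% as lower. Groups without overlap were found in 1.77% of tested genes, and in 1.23% with APOE-KO above. The median log2 fold change of the 7 tested genes was 0.95, against -0.02 over all tested genes. Because the 8 genes were chosen with earlier results known, these contrasts with all genes are not independent evidence. In bulk libraries such as these, a change in the number of cells that carry a transcript and a change in its amount per cell cannot be told apart.

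**Figure D1:**
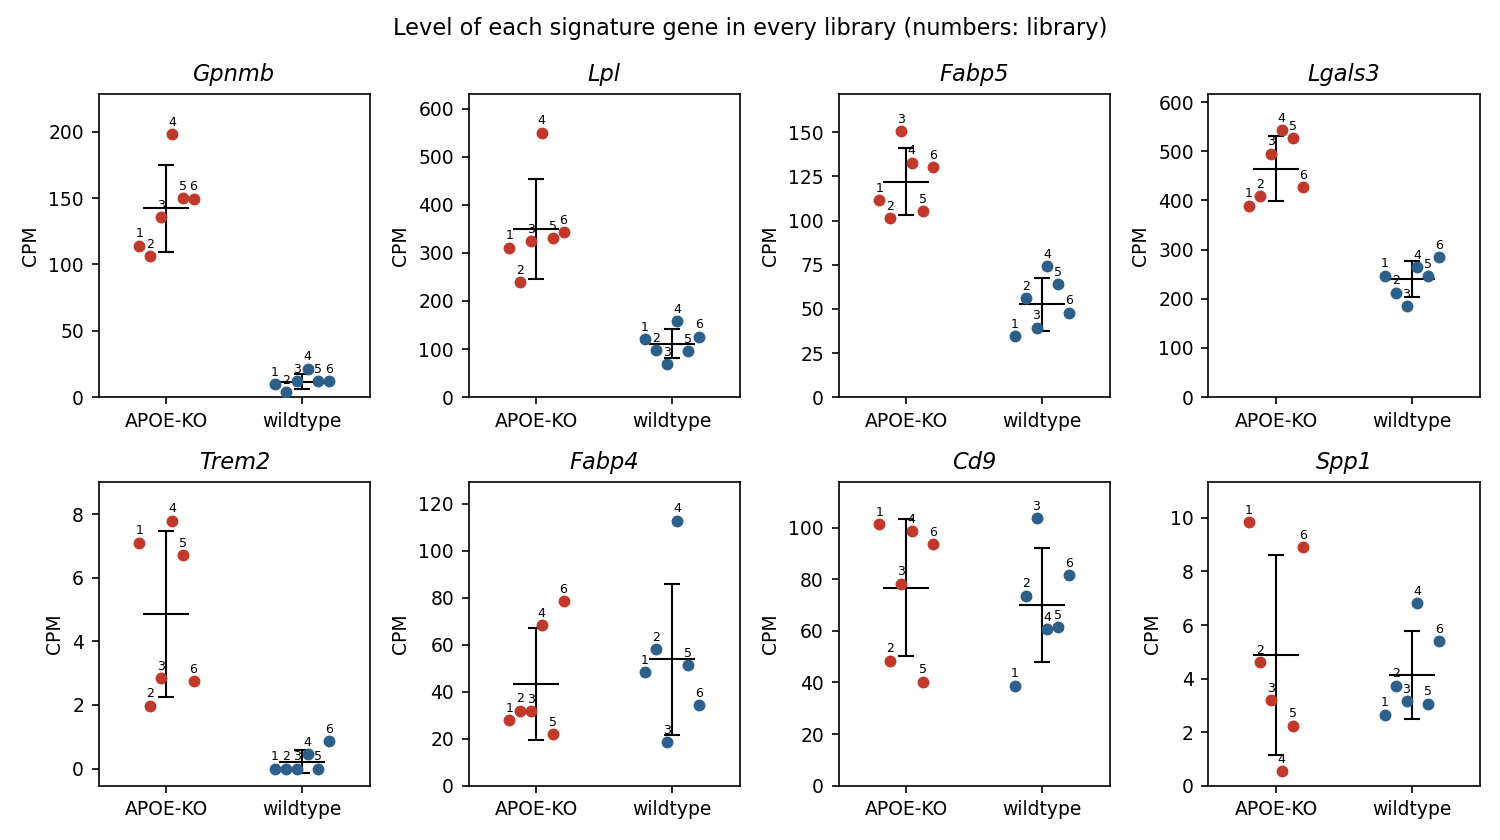
CPM of the 8 genes in each library, with APOE-KO (red) left of wildtype (blue); the number beside a point is its library and bars show the mean and SD of 6 libraries. Gpnmb, Lpl, Fabp5, Lgals3 and Trem2 show no overlap between genotypes, while Fabp4, Cd9 and Spp1 overlap.

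Upstream sequence is shown for the 3 genes that stood apart between genotypes and have an entry in the RefSeq promoter windows (GRCm38.p6), in which 5 of the 8 genes were found. Each run is the 250 bases before the annotated start, in the direction of transcription, with letters that match a searched motif in capitals (there are none in the Gpnmb and Lgals3 runs). Gpnmb lies at chr6:49036268-49036517 on the plus strand, Trem2 at chr17:48346151-48346400 on the plus strand and Lgals3 at chr14:47373610-47373859 on the plus strand, downstream of the first start that GENCODE gives for that gene.
Gpnmb: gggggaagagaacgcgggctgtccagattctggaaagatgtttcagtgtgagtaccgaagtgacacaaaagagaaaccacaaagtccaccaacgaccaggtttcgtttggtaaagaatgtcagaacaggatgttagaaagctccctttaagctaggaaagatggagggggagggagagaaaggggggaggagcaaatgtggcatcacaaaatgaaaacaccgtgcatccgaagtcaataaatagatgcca
Trem2: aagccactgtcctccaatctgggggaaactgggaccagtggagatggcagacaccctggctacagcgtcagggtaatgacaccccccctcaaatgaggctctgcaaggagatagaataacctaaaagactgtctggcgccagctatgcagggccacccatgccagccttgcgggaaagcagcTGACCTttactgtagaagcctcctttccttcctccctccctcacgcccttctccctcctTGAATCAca
Lgals3: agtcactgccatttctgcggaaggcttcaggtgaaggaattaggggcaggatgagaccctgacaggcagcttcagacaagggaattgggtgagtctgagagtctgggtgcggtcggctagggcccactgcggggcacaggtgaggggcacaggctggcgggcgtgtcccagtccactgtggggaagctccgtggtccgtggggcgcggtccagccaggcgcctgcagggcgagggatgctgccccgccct
Both strands were searched, in windows that also hold the first 50 bases after the RefSeq start. The motifs were TGANTCA, a loose form of the AP-1 motif that allows any base at N, and the CACGTG bound by MITF and TFE factors. The others were the MITF core TCATGTG, the PU.1 core GAGGAAGT and the nuclear receptor half-site AGGTCA. Of the 32851 RefSeq windows, 7.81% held TGANTCA, 7.15% CACGTG, 3.77% TCATGTG, 3.2% GAGGAAGT and 16.3% AGGTCA. In the Trem2 window TGAATCA, a match to the loose form only, with A at N, began 9 bases before the start. A half-site match, on the other strand, began 68 bases before it. The Gpnmb window held an AP-1 match, TGACTCA, from base 9 after the RefSeq start, just past the stretch printed. GENCODE starts Gpnmb further downstream, at 49036546, so the match lies before that start. No letters of these 5 motifs were found in the Lgals3 and Cd9 windows, and Spp1 had a PU.1 match 113 bases before the start in 1 of its 2 windows.

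Gpnmb encodes a membrane glycoprotein of lysosomes and phagocytes, and lies on chromosome 6 from 49036546 to 49070929 (GRCm38, plus strand). Its level ran from 106 to 198 CPM with a median of 143 CPM in APOE-KO libraries, and from 3.73 to 21.4 CPM with a median of 11.9 CPM in wildtype libraries. The lowest APOE-KO library thus held several times the level of the highest wildtype library. Gpnmb rose 11.8-fold (log2 fold change 3.56 ± 0.25 SE; adjusted p = 1.93e-09, edgeR), with the smallest p of any tested gene but Apoe.

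Trem2, on chromosome 17 from 48346401 to 48354147 (plus strand), was sparsely read and fell below the low-count filter, which asked for about 2.71 CPM, before TMM scaling, in 6 libraries; 4 APOE-KO libraries and no wildtype library reached it. APOE-KO libraries 1 to 6 held 31, 6, 8, 29, 27 and 13 Trem2 reads. Wildtype libraries 4 and 6 held 2 and 3 reads, and the other wildtype libraries held 0. Even the lowest APOE-KO library, at 1.98 CPM, was above the highest wildtype library, at 0.850 CPM. A few reads were thus detected in wildtype libraries 4 and 6. At this depth 3 reads, the number that a count of 0 allows, stand for 0.525 to 1.59 CPM in wildtype libraries. A count of 0 in the others therefore does not show that Trem2 was absent.

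The mean of Trem2 was 4.86 ± 2.60 CPM in APOE-KO and 0.218 ± 0.360 CPM in wildtype libraries (SD, n = 6 each). A two-sided permutation test, exact over all assignments of the libraries, gave p = 0.00216, the smallest possible in this design. Summed over libraries, 114 reads in APOE-KO stood against 5 in wildtype, a depth-scaled ratio of 22.2 with a 95% exact counting interval of 9.23 to 69.6 that covers counting error only. Fitted without the filter, over 16926 genes, the log2 fold change of Trem2 was 4.24 ± 0.96 (SE; adjusted p = 0.00494, edgeR).

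Lpl encodes lipoprotein lipase, which frees fatty acids from the triglycerides of circulating lipoproteins; it lies on chromosome 8 from 68880491 to 68907448 (plus strand). APOE-KO libraries ran from 240 to 549.8 CPM with a median of 328 CPM, and wildtype libraries from 69.1 to 158 CPM with a median of 109 CPM. The genotypes were separate, with APOE-KO library 4 well above the other APOE-KO libraries. Lpl rose 3.15-fold (log2 fold change 1.66 ± 0.19 SE, adjusted p = 9.24e-06 in edgeR's test), and 1.48 on the log2 scale without APOE-KO library 4.

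Fabp5 and Fabp4 are related fatty acid binding proteins of the cytosol whose genes lie 187.5 kb apart on chromosome 3, Fabp5 from 10012548 to 10016607 (plus strand) and Fabp4 from 10204088 to 10208576 (minus strand). Fabp5 had 102 to 151 CPM with a median of 121 CPM in APOE-KO libraries, and 34.5 to 74.2 CPM with a median of 52.0 CPM in wildtype libraries. It rose 2.31-fold in APOE-KO (log2 fold change 1.20 ± 0.17 SE, adjusted p = 0.000246 in edgeR's test), and the genotypes did not overlap.

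Fabp4, the family member of adipocytes and some macrophages and endothelial cells, had 21.9 to 78.6 CPM with a median of 31.8 CPM in APOE-KO libraries. In wildtype libraries it had 18.5 to 113 CPM with a median of 49.9 CPM. The ranges overlapped almost fully, and the log2 fold change was -0.31 ± 0.33 (SE, adjusted p = 0.793 in edgeR's test). Within a library, the log2 ratio of Fabp5 to Fabp4 reads (0.5 added to each) was 1.64 ± 0.66 in APOE-KO and 0.12 ± 0.63 in wildtype (SD, n = 6 each), a difference of 1.52. This ratio, and those given for Lgals3 and Cd63 beside their relatives, were chosen after the values were seen. They are therefore given as descriptions, without p-values. Other relatives of the family were scarce: of 13 listed, 12 fell below the filter, and 5 of these had no read.

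Lgals3 encodes galectin-3, a secreted and cytosolic lectin abundant in macrophages, and lies on chromosome 14 from 47367751 to 47386160 (plus strand). Its level was 389 to 543 CPM with a median of 461 CPM in APOE-KO libraries and 185 to 285 CPM with a median of 247 CPM in wildtype libraries. No library of either genotype reached into the range of the other. Lgals3 rose 1.94-fold (log2 fold change 0.95 ± 0.13 SE, adjusted p = 0.000132 in edgeR's test). Among 5 tested relatives, Lgals3bp, a secreted glycoprotein that binds galectins, rose 1.87-fold to 157 ± 15.7 CPM in APOE-KO, against 83.3 ± 17.6 CPM in wildtype (adjusted p = 0.000934, edgeR). Lgals1, which encodes galectin-1, had 296 ± 69.2 CPM in APOE-KO and 298 ± 61.1 CPM in wildtype (adjusted p = 0.993), and Lgals8 had 41.4 ± 7.58 CPM in APOE-KO and 45.0 ± 12.6 CPM in wildtype (adjusted p = 0.898). The log2 ratio of Lgals3 to Lgals1 reads was 0.67 ± 0.28 in APOE-KO and -0.30 ± 0.33 in wildtype (SD, n = 6 each), a difference of 0.97.

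Cd9 encodes a tetraspanin, a small membrane-spanning organiser of surface proteins, and lies on chromosome 6 from 125460266 to 125494791 (minus strand). Its level was 40.3 to 101 CPM with a median of 86.0 CPM in APOE-KO libraries and 38.8 to 104 CPM with a median of 67.6 CPM in wildtype libraries. Each genotype spanned nearly the same range, and the log2 fold change was 0.12 ± 0.23 (SE, adjusted p = 0.893 in edgeR's test). Of 19 tested tetraspanins and partners, Cd63, a tetraspanin of late endosomes and lysosomes, was the 1 that rose, 1.71-fold to 1047 ± 152 CPM in APOE-KO, against 611 ± 167 CPM in wildtype (adjusted p = 0.00565, edgeR). Over all tested genes 1.08% passed as higher. Tspan3 and Tspan13 did not pass, at 367 and 258 CPM in APOE-KO and 268 and 339 CPM in wildtype (adjusted p = 0.148 and 0.144). The log2 ratio of Cd63 to Cd9 reads was 3.84 ± 0.51 in APOE-KO and 3.14 ± 0.45 in wildtype (SD over 6 libraries each), a difference of 0.70 that was 0.54 without APOE-KO library 5.

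Spp1, on chromosome 5 from 104435118 to 104441050 (plus strand), encodes osteopontin, a secreted matrix protein and cytokine that many macrophages and tumour cells make. It was scarce in every library, with 119 reads over APOE-KO and 94 over wildtype. APOE-KO libraries ran from 0.537 to 9.85 CPM with a median of 3.91 CPM and wildtype libraries from 2.66 to 6.83 CPM with a median of 3.44 CPM. The APOE-KO libraries thus bracketed the wildtype ones, and the log2 fold change was 0.24 ± 0.56 (SE, adjusted p = 0.921 in edgeR's test), with a sign that changed between fits. None of 8 tested osteopontin receptors and matrix relatives passed, which is near the share of 1.49% over all tested genes. Cd44, a receptor for osteopontin and hyaluronan, had 699 ± 146 CPM in APOE-KO and 600 ± 176 CPM in wildtype (adjusted p = 0.691), and the integrin Itgb1 had 276 ± 25.3 CPM in APOE-KO and 260 ± 25.5 CPM in wildtype (adjusted p = 0.836).

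**Figure D2:**
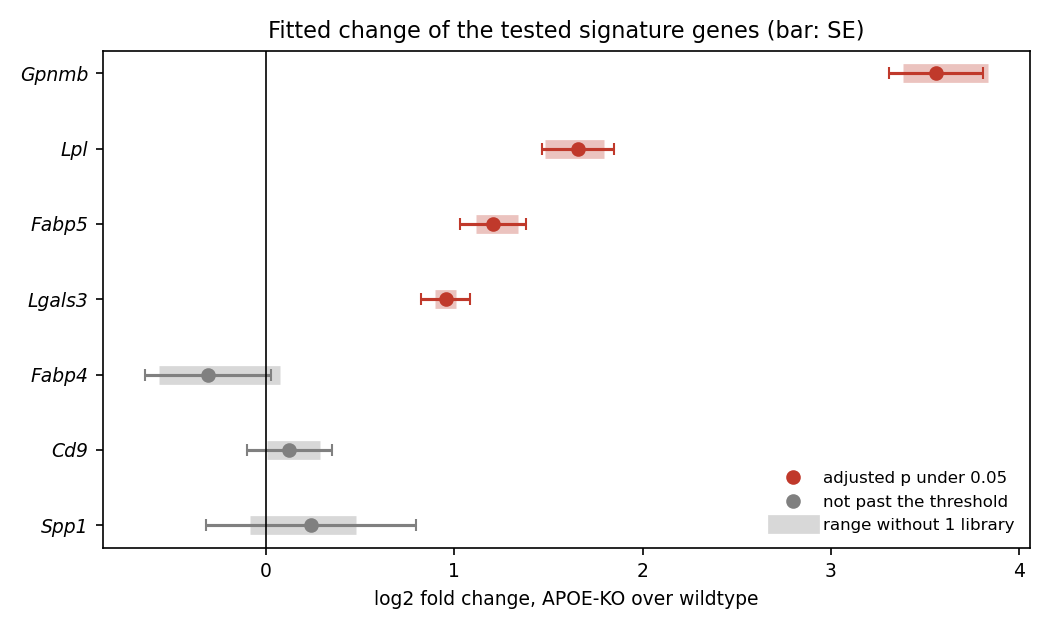
Log2 fold change, APOE-KO over wildtype, of the 7 tested genes with SE bars; shaded bands run over the 12 fits that each leave out 1 library. The bands of Gpnmb, Lpl, Fabp5 and Lgals3 stay above 0, those of Fabp4 and Spp1 cross it, and that of Cd9 begins at 0.01.

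Some libraries were high or low for several of the 5 separated genes. In APOE-KO, library 4 was the highest for Gpnmb, Lpl, Lgals3 and Trem2, and second to library 3 for Fabp5; in wildtype, library 4 was the highest for Gpnmb, Lpl and Fabp5. Library 2 was the lowest of APOE-KO for Gpnmb, Lpl, Fabp5 and Trem2. Relative to their means, Lgals3 and Fabp5 varied least among APOE-KO libraries (coefficients of variation 14.0% and 15.5%), Gpnmb and Lpl more (23.0% and 29.9%) and Trem2, with its low counts, most of the 5 (53.5%). Library 4 of APOE-KO was, in turn, the lowest of all 12 for Spp1. Without wildtype library 4, which held the highest Gpnmb of its genotype, the log2 fold change of Gpnmb was 3.83.

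Genes that could accompany a shift in other cells of the preparation were read beside these results. The sum of 17 macrophage markers was 1114 to 1424 CPM in APOE-KO and 1260 to 1478 CPM in wildtype libraries, with Vsig4 at 0 throughout. Of the 15 tested in that list, Cd5l, a scavenger protein of macrophages, and the complement gene C1qb rose. Marco, Timd4, Mrc1, Maf and Folr2 fell, and the other 8 did not pass. The sum of 18 epithelial markers was lower, at 29.3 to 137 CPM in APOE-KO and 124 to 231 CPM in wildtype libraries, and 1 of the 8 tested, the adhesion gene Cdh1, fell. Plasmacytoid dendritic cell markers summed to 1035 to 1390 CPM in APOE-KO and 1326 to 2887 CPM in wildtype, and 4 of 9 tested fell; their part in the results was not tested. Among dendritic cell markers Ccr7 and Sirpa rose and Clec10a fell, of 14 tested, and among B cell markers Fcer2a fell, of 6 tested. None of the tested endothelial, monocyte, neutrophil, NK cell, T cell or fibroblast markers passed, where 1.49% of all tested genes did. Of these marker calls, several did not hold in all 12 fits that leave out 1 library: Sirpa passed in 3, Fcer2a in 4, Folr2 in 4, C1qb in 4 and the plasmacytoid gene Cox6a2 in 8. In a fit that held the epithelial mean constant, the log2 fold changes were 4.09 for Gpnmb, 2.11 for Lpl, 1.47 for Fabp5 and 1.07 for Lgals3. Epithelial markers differed between genotypes, so this fit separates them poorly from genotype. Its SE was larger than with genotype alone, 0.34 against 0.25 for Gpnmb and 0.21 against 0.13 for Lgals3. Holding the mean of the macrophage markers constant, some of which rose and some fell, gave 3.70 for Gpnmb, 1.82 for Lpl, 1.31 for Fabp5 and 1.01 for Lgals3. All 4 passed in both fits (adjusted p up to 0.0184, edgeR), as they did without APOE-KO library 5 and wildtype libraries 1 and 3.

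Fabp4 varied among libraries of either genotype together with adipocyte markers. The 14 adipocyte markers, all below the filter and Lep at 0, summed to 4.23 to 14.0 CPM in APOE-KO and 7.52 to 29.8 CPM in wildtype, and wildtype library 4 was highest both in that sum and in Fabp4. Over 12 libraries on the log2 scale, Pearson's r was 0.80 (permutation p = 0.00148) and Spearman's rho 0.79 (permutation p = 0.00324), or 0.0178 and 0.0389 adjusted over 12 relations of Cd9, Fabp4 and Spp1 with 4 marker sums. Without wildtype library 4 and APOE-KO library 5, the farthest in the marker sum, r was 0.60 (permutation p = 0.0643). The relation was thus weaker without those libraries, and the p-value also rises because fewer libraries remain. Within genotypes r was 0.69 in APOE-KO and 0.90 in wildtype (n = 6 each). None of the other 11 relations passed adjustment, and the part of adipocyte RNA in the level of Fabp4 was not tested.

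**Figure D3:**
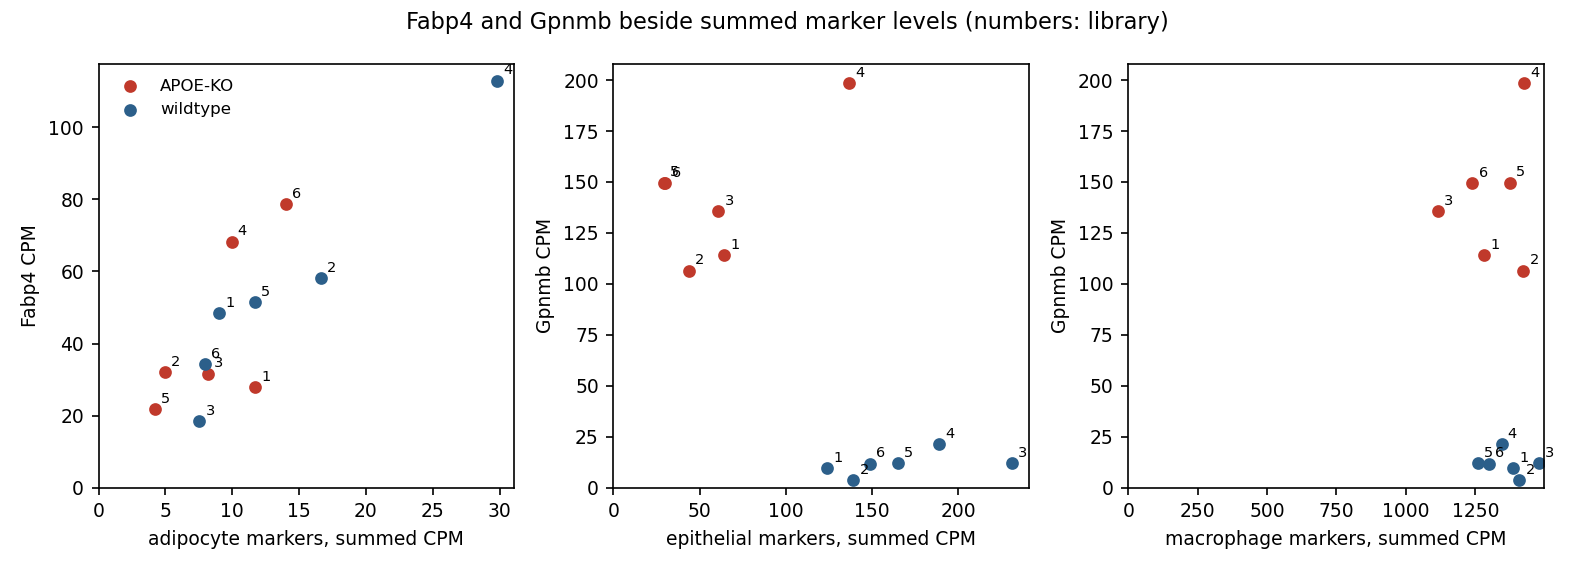
Each point is a library (APOE-KO red, wildtype blue, numbered); the panels set Fabp4 CPM against summed adipocyte markers, and Gpnmb CPM against summed epithelial and summed macrophage markers. Fabp4 is highest where adipocyte markers are, in wildtype library 4. Gpnmb is at 106 CPM or more in APOE-KO libraries and at 21.4 CPM or less in wildtype libraries, and the macrophage sums of the genotypes overlap.

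Beyond the 8 genes, transcripts tied to lipid-laden macrophages were higher in APOE-KO in 15 of 48 tested cases and lower in none, with a median log2 fold change of 0.47. Over all tested genes 1.08% were higher and 0.411% lower, with a median of -0.02. The list of 48 was written with earlier results of these data known, so its direction is not independent evidence. Those with the smallest p were Abca1, a cholesterol exporter (log2 fold change 1.36), Ctsd, a lysosomal protease (1.09), Abcg1, a sterol exporter (1.18), Atp6v0d2, a proton pump subunit (271 reads over APOE-KO against 13 over wildtype), Mmp12, a macrophage elastase (1.52), and Apoc1, an apolipoprotein (2.29), with adjusted p between 1.04e-05 and 0.00142 in edgeR's test. Atp6v0d2, at a mean of 0.510 CPM in wildtype libraries, passed the low-count filter through its APOE-KO libraries. Apoc1 belongs to the same gene cluster as Apoe, the targeted gene, and an effect of the altered locus on it was not tested. Cd52 had 2470 ± 124 CPM in APOE-KO and 2340 ± 260 CPM in wildtype, and Fth1, the ferritin heavy chain, 1788 ± 62.2 CPM in APOE-KO and 1372 ± 169 CPM in wildtype (adjusted p = 0.828 and 0.066). With the epithelial mean held constant, in the fit that separates it poorly from genotype, 30 genes in all passed instead of 160. Abcg1, Apoc1, Lgals3bp and Cd63 then did not pass (adjusted p = 0.0514, 0.171, 0.136 and 0.112, edgeR), with log2 fold changes of 1.22, 2.19, 0.97 and 0.99, against 1.18, 2.29, 0.90 and 0.78 in the fit with genotype alone.

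Among genes that work with the signature proteins few passed. Over all tested genes 1.49% passed, so a list this short with none is not a result about its genes. Of 12 tested partners and relatives of TREM2 none passed: Tyrobp, its signalling adaptor, had 485 ± 25.2 CPM in APOE-KO and 495 ± 64.6 CPM in wildtype (log2 fold change -0.03 ± 0.11 SE, adjusted p = 0.959), and Pik3cd, a kinase of immune receptor signalling, 484 ± 40.0 CPM in APOE-KO and 515 ± 71.6 CPM in wildtype (adjusted p = 0.827). Of 10 tested partners and relatives of lipoprotein lipase, Apoc1 was the 1 that rose, to 13.6 ± 3.63 CPM in APOE-KO, against 2.71 ± 1.11 CPM in wildtype. Apoc4, of the same cluster as Apoc1 and Apoe, fell below the filter, with 50 reads over APOE-KO and 4 over wildtype. An effect of the altered locus on these genes was not tested. Sel1l, needed for the enzyme's maturation, and Furin, a protease that cleaves it, had 182 and 76.5 CPM in APOE-KO and 162 and 75.2 CPM in wildtype (adjusted p = 0.634 and 0.991). None of 6 tested partners and relatives of GPNMB passed, among them Adam10, a sheddase, at 69.4 ± 20.3 CPM in APOE-KO and 68.1 ± 10.1 CPM in wildtype (adjusted p = 0.981).

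**Figure D4:**
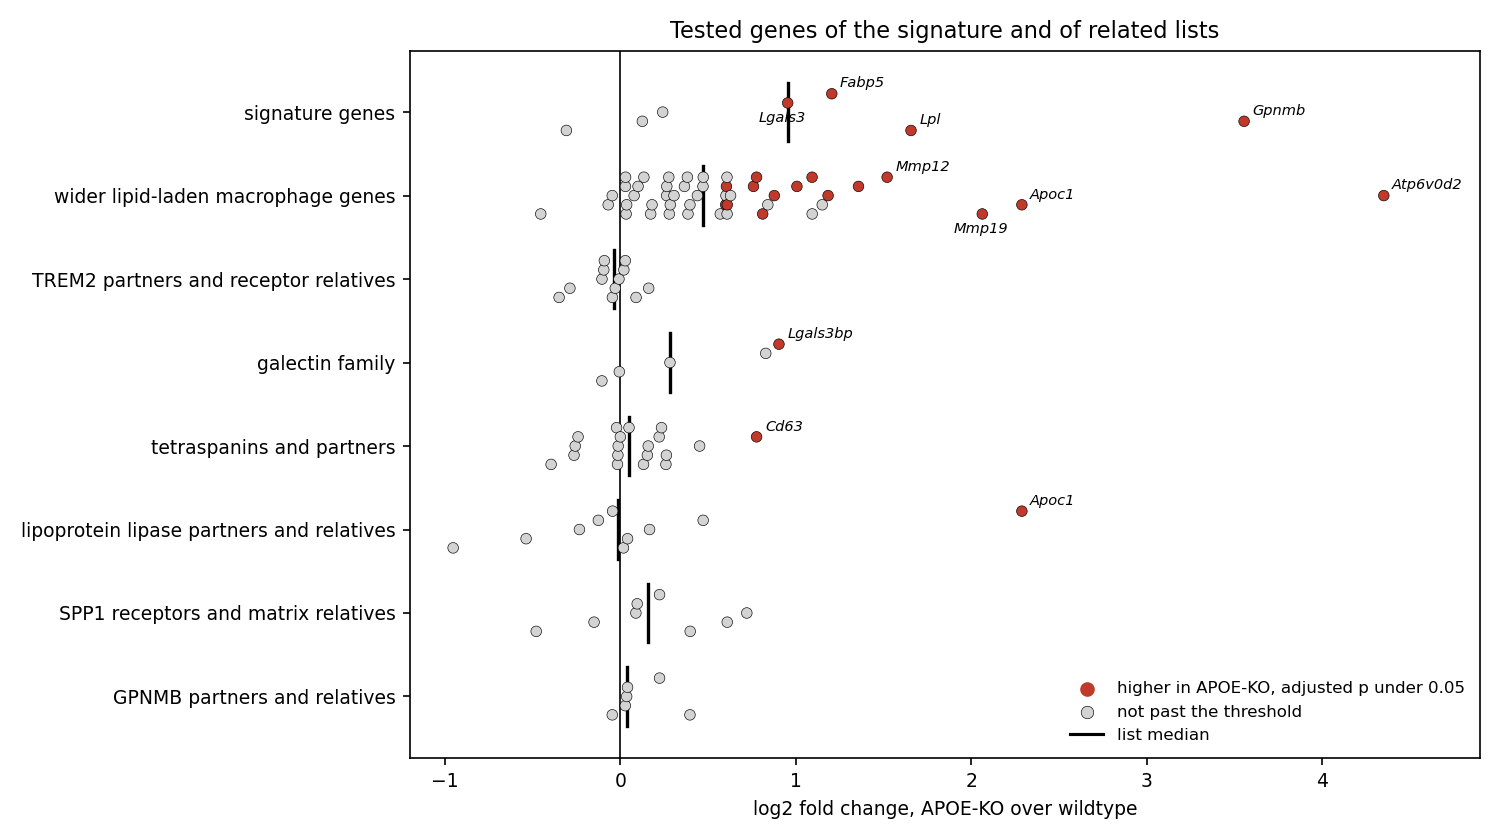
Log2 fold change, APOE-KO over wildtype, of every tested gene in the signature and in 7 related lists; red points passed an adjusted p of 0.05 and black bars are list medians. The wider list has 15 red points and a median of 0.47. The list of TREM2 partners has none and a median of -0.04, where 1.49% of all tested genes passed.

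The genes whose library pattern lay closest to each risen signature gene were sought among 9412 genes averaging at least 5 CPM, by the root mean square difference of log2 CPM after centring each gene on its mean over the 12 libraries. Gpnmb was closest to Atp6v0d2 (0.57 log2 units), followed by Mmp19, a matrix metalloproteinase (0.97), and F10, coagulation factor X (1.00), while its own SD over libraries was 1.99. Lgals3 was closest to Ccl6, a chemokine (0.12), Vps39, a subunit of an endosome tethering complex (0.19), and Pld3, a lysosomal nuclease (0.20). Fabp5 was closest to Abca1 (0.27), Tmem86a, a membrane lysoplasmalogenase (0.28), and complement C3 (0.29). For Lpl the closest were Mmp12 (0.38), Pld3 (0.38) and C3 (0.40). All these genes were higher in APOE-KO with no overlap between genotypes, which follows from how they were sought. Atp6v0d2 (12.3 CPM in APOE-KO, 0.510 CPM in wildtype) and Mmp19 (12.0 and 2.75 CPM) reached the 5 CPM mean through their APOE-KO libraries. Held at a constant epithelial mean, Mmp19, F10, Vps39 and Tmem86a did not pass (adjusted p = 0.571, 0.124, 0.652 and 0.112, edgeR). Their log2 fold changes in that fit were 2.13, 2.07, 0.66 and 1.17, against 2.06, 1.78, 0.74 and 1.08 with genotype alone. Vps39 also lost its call without APOE-KO library 3 (adjusted p = 0.0598).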

How the data were processed

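Libraries were made with a Lexogen kit that reads 3′ ends, per the labels' protocols. The authors deposited raw counts, as whole numbers for each gene symbol. The submitters' processing notes list mm10 as the build and, as tools, DESeq2 1.4, featureCounts 1.5.1, STAR 2.7.8a and R 4.1.0, with no roles. No source used here gives the annotation, strand setting, handling of multi-mapping reads or use of molecular identifiers. Reads lie near transcript ends, so counts do not scale with gene length.

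Columns were matched to samples by the labels' descriptions. The test was run with edgeR 4.0.16 under R 4.3.3 (filterByExpr, TMM, glmQLFit and glmQLFTest on genotype, Benjamini-Hochberg over 10714 genes). The SE is the log2 fold change over the square root of F; log2 CPM used a prior count of 2. Alternatives used limma 3.58.1 and DESeq2 1.42.0. Single levels and relations used permutation tests. On counts simulated for this comparison (10714 genes, 200 changed, 3 rounds), 19.4%, 53.2% and 77.3% of genes changed 1.5-fold, 2-fold and 3-fold were recovered, and 3.86% of calls were false.

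Positions are from GENCODE vM21 (GRCm38, the assembly mm10 names). In the last 400 bases of each gene no other annotated gene overlaps, and BLAST 2.17.0 found no other transcript with 95% identity over 100 bases. The members and lists were chosen with earlier results of these data known. Named genes are all members and, per list, up to 6 that passed with the smallest p and the 2 most abundant that did not; C1qb, Cd68, Csf1r and Adgre1 were added after their values were seen.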

Additional observations from a re-analysis of the deposited data

Results flagged for a closer look

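Lpl in APOE-KO library 4 stood at 549.8 CPM, against 343 CPM in the next highest APOE-KO library, a gap of 0.665 of the group's whole range. Chance sets about 1 in 20 groups apart in this way, and 16 groups were examined. No other signature gene had such a library.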

How the results depend on the processing

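The calls of Gpnmb, Lpl, Fabp5 and Lgals3 held in all 12 fits without 1 library and in all 12 other settings (other size factors, Rn45s left out, other filters, DESeq2, limma-voom, robust dispersion, replicate block, both covariates, 3 libraries left out). No other signature gene passed, except Trem2 in fits with a looser filter or none; under 1 CPM in 6 libraries it enters only through its APOE-KO libraries. The difference of Trem2 kept its direction and stayed past the threshold, from 4.06 to 5.22 CPM without 1 library. The number of genes called was 160, but 297 with DESeq2 and 99 to 230 without 1 library (99 without APOE-KO library 3). It was 30 with the epithelial covariate, which itself differed between genotypes. The labels do not pair same-numbered libraries. Correlations of their deviations ran from -0.09 to 0.13, and numbers 1 and 2 of the 6 matched their own number best, so no pairing was assumed; the replicate block left 100 genes and changed no call among the 7 genes. Spp1, at a log2 fold change of 0.24, ran from -0.08 to 0.48 over the fits without 1 library (-0.083 without APOE-KO library 1, -0.02 without APOE-KO library 6). It was -0.10 with limma-voom, -0.023 with the replicate block, -0.19 with the epithelial covariate and -0.51 with the macrophage covariate. Fabp4, at -0.31, was 0.059 with the macrophage covariate and ran from -0.57 to 0.073 (without wildtype library 4) over the fits without 1 library; the cause was not tested. Cd9, at 0.12, was 0.82 ± 0.35 (SE) with the epithelial covariate and did not pass (adjusted p = 0.689, edgeR). Trem2 and Spp1 rest on few reads, 114 and 119 over APOE-KO and 5 and 94 over wildtype.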
